A study of Mus musculus with 13 samples.

Results

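Voltage-gated sodium and calcium channel genes, hyperpolarization-activated cation (HCN) channel genes and potassium channel genes were taken from a table of H3K4me3 in mouse hippocampus by their gene names (Scn followed by a number and a, Cacna, Hcn and Kcn), leaving out Kcnj8 and the antisense transcript Kcnq1ot1. Where a gene had several regions of the mark, the region with the highest mean over all 13 libraries stood for it. This gave 95 genes, with 1 region each, of 14006 distinct regions in the table. They were 6 sodium channel genes, 10 calcium channel alpha1 genes, 3 calcium channel alpha2delta genes, 4 HCN genes and 72 potassium channel genes. The mark was read by chromatin immunoprecipitation followed by sequencing of hippocampi from C57BL/6 mice, with or without deletion of Mtr, which encodes methionine synthase, in central nervous tissue. In the knockouts, exons 4 and 5 of Mtr had been removed by a Cre recombinase under the Thy-1.2 promoter, a promoter used to drive genes in neurons. The genotypes are labelled TC;MLML_MTR-KO and MLML-WT, and whether the wild types carry floxed exons is not given in the sources used here. The groups were knockouts given SRT2104 (n = 4, treated knockouts), knockouts labelled as not treated (n = 2, untreated knockouts), wild types given SRT2104 (n = 3, treated wild types) and wild types given vehicle (n = 4, vehicle wild types). SRT2104 is an agonist of the deacetylase SIRT1 and was given by gavage at 50 mg/kg, in 9 administrations between day 15 and day 36, at 3 per week. Vehicle was DMSO in PEG. No label says that the untreated knockouts received vehicle, so in comparisons with them the effect of gavage cannot be told apart from that of genotype or compound. Whether each library is a separate mouse is not labelled either, and p-values then measure only the spread between libraries, which may be technical.

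Ion channels of these families set the resting potential of neurons, start and end the action potential, and let calcium into axon terminals and dendrites. Sodium and calcium alpha1 subunits form a whole pore from a single chain, whereas most potassium channels and HCN channels assemble from 4 separate subunits and two-pore potassium channels from 2, and auxiliary subunits tune gating and trafficking. H3K4me3, trimethylation of lysine 4 on histone H3, marks the start sites of genes that are active or poised in at least some cells of a tissue. The methyl group comes from S-adenosylmethionine, which is remade from the methionine that methionine synthase supplies. In whole hippocampus, fewer cells of a type that carry the mark and less mark in each cell cannot be told apart.

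Values are normalised read counts, the reads of a library in a region divided by 1 factor per library. Reads within regions ranged from 3963196 to 9009109 per library. Column names carry a sex letter. Both untreated knockouts were female and all 4 vehicle wild types male, so sex and group cannot be told apart between them, and the SRT2104 groups held both sexes. Regions of all 8 neuron markers, all 8 astrocyte markers, 8 of 9 oligodendrocyte markers and 3 of 6 microglia markers were listed, and the summed level of the neuron markers was 4859 to 5189 in treated knockouts, 4954 and 5366.5 in untreated knockouts, 4620.2 to 5355 in treated wild types and 4360.0 to 5415 in vehicle wild types. Replicate 3 of the vehicle wild types stood apart from the other 3 vehicle libraries in its oligodendrocyte marker sum, the lowest of its group (2239.5, against 2728 to 2877). It also had the highest neuron marker sum of all libraries (5415). The neuron sum alone did not set it apart, as vehicle replicate 1 had the lowest of all libraries (4360.0). Vehicle replicates 2 and 4 had 4954 and 4950. Untreated knockout replicate 2 had the lowest oligodendrocyte sum (2148), against 2817 in untreated knockout replicate 1. For named channel genes, calls that change without vehicle replicate 3 are given with and without it, for Kcnma1, Cacna1g and Kcns3 only in the plot that shows both settings. Counts of genes above or below 0 and the values of partner genes are given with that library only.

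Channel gene regions were long for their signal. Their median length was 1829 bp, against 1484 bp over all regions, and 41 of the 95 (43.2%) reached 2000 bp, against 16.4% of all regions. Their median level was 515 normalised read counts, against 526 over all regions. Per kb of region the median was 291 for channel genes and 359.9 for all regions, so the mark was broader and lower. Levels of different genes are compared per kb. The channel genes also varied more from library to library than the table as a whole, with a median SD of 0.132 on the log2 scale, against 0.0919 over all regions.

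Sodium channel genes, which carry the upstroke of the action potential, had the lowest family median, 146 normalised read counts per kb. Scn8a, whose channel is concentrated at the axon initial segment and nodes, had 339 per kb over a region of 2820 bp (chromosome 15, 100700602 to 100703422, build mm9). Scn3a, expressed mainly in the developing brain, had 147 per kb and Scn2a1, the main sodium channel gene of excitatory neurons, 145 per kb. Scn9a, known from sensory neurons, had 123 per kb. Scn1a, the sodium channel gene of inhibitory interneurons, was lowest with 78.3 per kb, in a region that the table also assigns to Gm13629. Scn1a, Scn2a1, Scn3a and Scn9a all lie on chromosome 2, between 65403413 and 66473301, and all 6 sodium channel genes were below the median of all regions per kb.

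Calcium channel alpha1 genes form the pores that let calcium enter on depolarization. Their family median was 364 normalised read counts per kb. The L-type gene Cacna1c was highest (449 per kb), followed by the T-type gene Cacna1h (438) and the P/Q-type gene Cacna1a (425). The N-type gene Cacna1b had 385, the T-type Cacna1g 367, the L-type Cacna1d 361, the R-type Cacna1e 291 and the T-type Cacna1i 258 per kb. The lowest were Cacna1f, the retinal channel gene (157, in a region shared with Ccdc22), and Cacna1s, the skeletal muscle channel gene (109, shared with Ascl5). The alpha2delta genes, whose products carry calcium channels to the cell surface and bind gabapentin-type drugs, had 477 (Cacna2d3), 383 (Cacna2d1) and 289.9 (Cacna2d2) per kb.

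HCN genes encode the pacemaker current that opens on hyperpolarization. Hcn2 had 443 normalised read counts per kb, Hcn4 325 and Hcn3 282, the last with a mean count of 352 over 1246 bp.

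Among potassium channel genes, the 35 Kv alpha genes, which encode voltage-gated pores that repolarize the membrane, had a median of 291 per kb. Among the highest were Kcna2, an axonal Shaker-type gene, with 478 per kb, and Kcnd2, which carries the dendritic A-type current, with 463, and the lowest were Kcna5 with 51.3 and Kcnh6, of the ether-a-go-go-related subfamily, with 63.3. The M-current genes Kcnq3 and Kcnq5 had 419 and 388 per kb, and Kcnq1, known from the heart and ear, 100.5. Of the 6 calcium- and sodium-activated genes, the small-conductance gene Kcnn2 was highest of all 95 with 501 per kb, and Kcnma1, which encodes the large-conductance calcium-activated pore, had 437. The sodium-activated Kcnt1 was lowest of these with 171. Inward rectifiers, which hold the membrane near the potassium equilibrium potential, ran from Kcnj3, a subunit of G-protein-gated channels (424), to Kcnj5, its partner in the heart (48.8). The astrocyte channel gene Kcnj10 had 196 and its partner Kcnj16 71.98 per kb. Two-pore genes, which carry leak current, ran from Kcnk2 (388) to Kcnk9 (174), and auxiliary subunit genes from Kcnab2 (441, in a region shared with Nphp4) to Kcne1l (57.1).

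**Figure D1:**
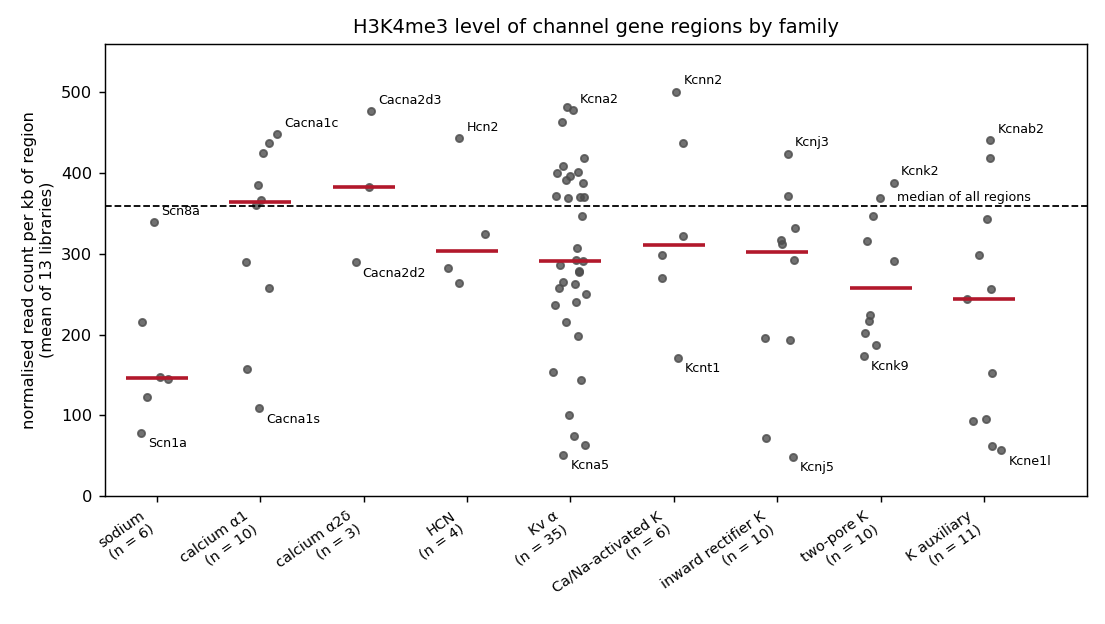
H3K4me3 level per kb of region (y axis, normalised read count per kb, mean of 13 libraries) for the 95 channel genes, 1 point per gene, by family; red bars are family medians and the dashed line is the median of all 14006 regions. Sodium channel genes have the lowest median (146 per kb), and calcium alpha1 and alpha2delta genes lie at 364 and 383 per kb.

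A total of 12 genes had more than 1 region. Kcnip4, which encodes a protein that binds Kv channels of the Kcnd group, had 4 regions, the last 775641 bp from the strongest, with means of 72.1, 66.3, 59.4 and 58.5 normalised read counts, so that no single region dominated. Kcnt1 had 2 regions 14067 bp apart, with 202 and 186 counts. Regions of one gene are compared here by mean count and not per kb, so the order also follows their length. The second region of Kcna7 (492 bp) had 76.2% of the first (801 bp), and those of Kcnh4, Kcnab3 and Kcnip3 had 52.3%, 48.0% and 44.3%. The second regions of Kcnj16, Kcnn2, Kcnip1, Kcnh2 and Kcnk2 had 27.0%, 19.5%, 15.3%, 12.1% and 4.03% of the first. Distances between the first and second region ran from 1242 bp in Kcna7 to 395496 bp in Kcnip4, and whether a second region is a second promoter was not tested.

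**Figure D2:**
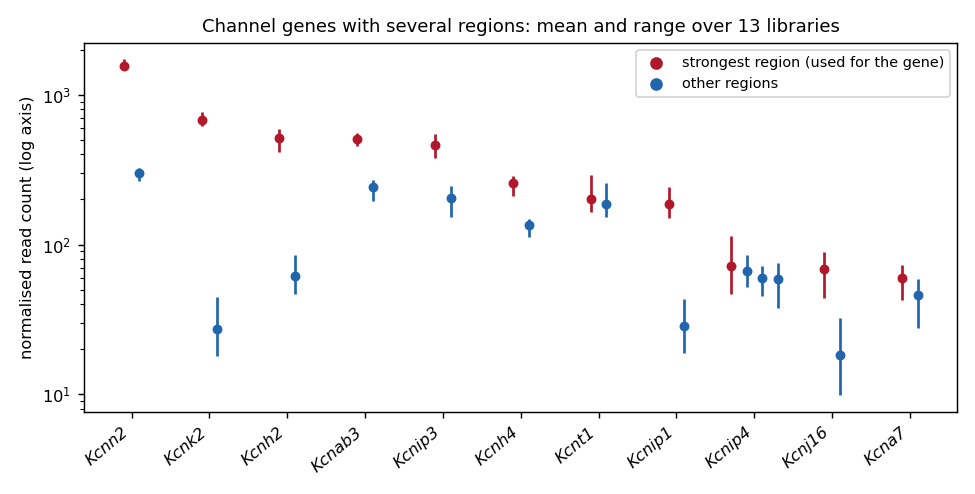
Normalised read count (log axis) of each region of 11 of the 12 channel genes with several regions, as the mean (point) and the range over 13 libraries (line). The other regions lie below the strongest one in mean, by little in Kcnt1 (186 against 202) and Kcnip4.

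Promoter windows from RefSeq (build GRCm38.p6, 250 bases before to 50 after each start site) were found for 69 of the 95 genes. This share (72.6%) is below 80%, so base composition over the set is not described. Regions are in mm9 and the windows in GRCm38.p6, so they cannot be placed on each other. Windows are printed for 5 genes, chosen after their values were seen: Kcnma1 and Cacna1i, which rose in untreated knockouts without vehicle replicate 3, Kcnh8, which fell there, Kcnh5, which was highest in treated knockouts, and Kcnh6, the gene with the most variable region. Capitals mark the GC box GGGCGG on either strand (read as CCGCCC on the other) and, in Kcnh6, TTCAGCACC, which is the left part of RE1, the element bound by the neuronal gene repressor REST. The windows lie at chr14:24004156-24004455, minus strand; chr15:80286988-80287287, plus strand; chr17:52602459-52602758, plus strand; chr12:75177283-75177582, minus strand; and chr11:106007898-106008197, plus strand.
Kcnma1: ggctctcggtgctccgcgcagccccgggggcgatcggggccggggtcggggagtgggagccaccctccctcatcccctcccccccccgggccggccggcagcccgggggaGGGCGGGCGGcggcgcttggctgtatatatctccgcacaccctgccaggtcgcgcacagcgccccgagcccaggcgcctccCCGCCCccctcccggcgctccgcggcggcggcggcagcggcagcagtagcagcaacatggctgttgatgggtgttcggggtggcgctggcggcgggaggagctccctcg
Cacna1i: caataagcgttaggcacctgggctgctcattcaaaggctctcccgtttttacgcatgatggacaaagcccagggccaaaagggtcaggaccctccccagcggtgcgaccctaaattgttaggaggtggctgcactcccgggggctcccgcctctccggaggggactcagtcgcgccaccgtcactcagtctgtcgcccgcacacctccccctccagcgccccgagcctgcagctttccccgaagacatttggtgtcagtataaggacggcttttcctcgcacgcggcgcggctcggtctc
Kcnh8: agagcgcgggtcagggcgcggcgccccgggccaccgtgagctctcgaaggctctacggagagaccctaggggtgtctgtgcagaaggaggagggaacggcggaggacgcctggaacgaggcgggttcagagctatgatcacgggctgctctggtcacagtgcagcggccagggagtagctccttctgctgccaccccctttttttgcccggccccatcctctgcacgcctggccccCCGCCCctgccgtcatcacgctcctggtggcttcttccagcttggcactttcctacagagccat
Kcnh5: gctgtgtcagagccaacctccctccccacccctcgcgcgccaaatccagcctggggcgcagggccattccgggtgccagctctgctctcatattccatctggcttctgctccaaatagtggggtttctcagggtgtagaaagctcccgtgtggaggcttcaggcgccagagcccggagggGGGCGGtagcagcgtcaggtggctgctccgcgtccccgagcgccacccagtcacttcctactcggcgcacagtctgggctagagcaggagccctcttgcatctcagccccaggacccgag
Kcnh6: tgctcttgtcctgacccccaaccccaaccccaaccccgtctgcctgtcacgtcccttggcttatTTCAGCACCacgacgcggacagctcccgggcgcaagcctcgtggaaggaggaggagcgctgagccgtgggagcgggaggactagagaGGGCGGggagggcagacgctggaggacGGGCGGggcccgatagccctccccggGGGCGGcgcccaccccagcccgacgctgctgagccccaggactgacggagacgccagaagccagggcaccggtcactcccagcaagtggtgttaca
The window of Kcnma1 held 3 GC boxes, 2 of them overlapping runs of the same strand, those of Kcnh8 and Kcnh5 held 1 each, that of Kcnh6 held 3 and that of Cacna1i held 0. A GC box was found in 35.7% of all 32851 windows on either strand. TTCAGCACC was found in 0.371% of windows, and in the Kcnh6 window it was followed after 7 bases by GGACAG. These letters, searched for as the right part of RE1, were alone found in 22.2% of windows. Whether the 2 parts at this spacing form a site for REST was not tested. CpG observed over expected was 0.789 in Kcnma1, 0.794 in Cacna1i, 0.643 in Kcnh8, 0.535 in Kcnh5 and 0.666 in Kcnh6. The match in Kcnh6 is a description of its letters, and its region had a mean of only 23.6 normalised read counts.

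Across the 4 groups, no channel gene passed an adjusted p of 0.05 in limma's moderated F-test for any difference (smallest adjusted p = 0.156), and 16 of 95 had an unadjusted p under 0.05, against 11.5% of all regions. In all regions, 0.00714% passed the adjusted threshold. Without vehicle replicate 3, 8 channel genes passed (8.4%, against 1.55% of all regions). The channel genes as a list were described by their median log2 difference from the vehicle wild-type mean in each library. It was 0.0631, 0.0597, 0.0648 and 0.00841 in treated knockouts, 0.113 and 0.0831 in untreated knockouts, 0.0452, -0.0335 and 0.00954 in treated wild types, and -0.0656, -0.0174, 0.0990 and -0.00433 in vehicle wild types. Both untreated knockouts were above 3 of the 4 vehicle libraries, and vehicle replicate 3 lay between them. Vehicle replicate 3 was above all 4 treated knockouts, the other 3 vehicle libraries were below them, and treated knockout replicate 4 was within the range of treated wild types.

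With the median of all regions subtracted, HCN genes had -0.128, 0.00755, 0.0514 and 0.0491 in treated knockouts, 0.0253 and 0.337 in untreated knockouts, 0.0105, 0.0120 and 0.0116 in treated wild types, and -0.0897, -0.00497, 0.196 and -0.102 in vehicle wild types. The 2 highest values came from untreated knockout replicate 2 and vehicle replicate 3, the libraries with the 2 lowest oligodendrocyte marker sums, and the part of cell makeup in this was not tested. Calcium alpha1 genes on the same scale ran from 0.0457 to 0.0990 in treated knockouts, were 0.0606 and 0.0807 in untreated knockouts, ran from -0.00910 to 0.0765 in treated wild types and from -0.0693 to 0.0452 in vehicle wild types. On this scale the lowest knockout library (0.0457) and the highest vehicle library (0.0452) nearly met, and knockouts overlapped the treated wild types. Without the subtraction, calcium alpha1 genes had 0.108, 0.0497, 0.0663 and 0.0426 in treated knockouts and 0.142 and 0.0651 in untreated knockouts, and vehicle replicate 3, with 0.0806, was above 4 of the 6 knockouts. Sodium channel genes, only 6 regions, were again read with the subtraction. All but Scn8a were below the median count of all regions. The sodium channel values ran from -0.0619 to 0.143 in treated knockouts and were -0.0232 and 0.227 in untreated knockouts. They ran from 0.0742 to 0.240 in treated wild types and from -0.0653 to 0.154 in vehicle wild types, and every pair of groups overlapped. Potassium channel genes make up 72 of the 95 genes, so their median is bound to lie near that of the whole list. With the subtraction they had 0.00905 to 0.106 in treated knockouts and 0.0276 and 0.0878 in untreated knockouts. In treated wild types they had -0.00300 to 0.147 and in vehicle wild types -0.0565 to 0.0643.

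**Figure D3:**
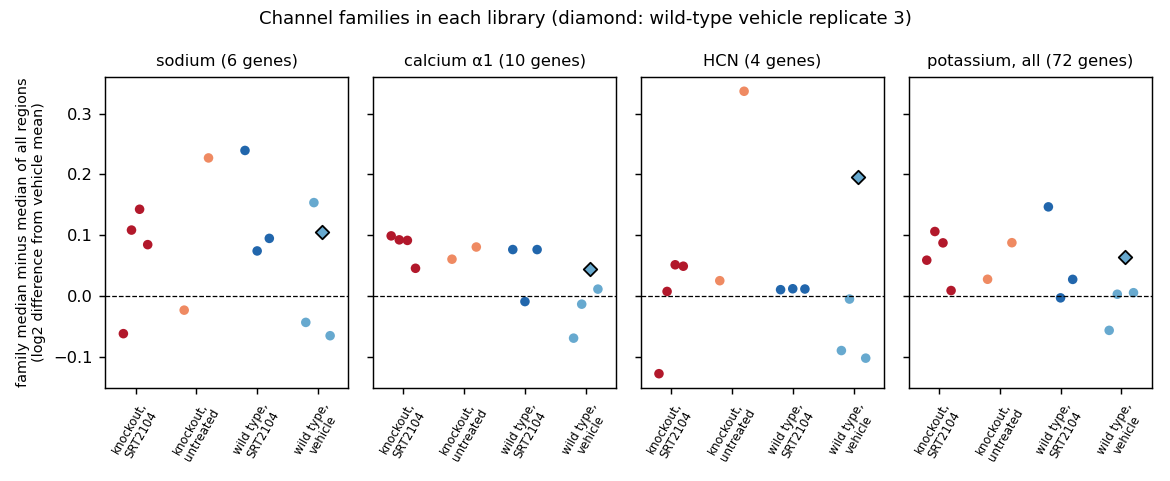
Median over the genes of a family of the log2 difference from the vehicle wild-type mean, minus the same median over all regions (y axis), in each of 13 libraries, 1 point per library. HCN genes reach 0.337 in untreated knockout replicate 2 and 0.196 in vehicle wild-type replicate 3 (diamond), and calcium alpha1 genes lie at 0.0457 to 0.0990 in the 6 knockout libraries.

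The comparison of untreated knockouts with vehicle wild types asks what loss of methionine synthase goes with. In it, 76 of 95 channel genes had a log2 difference above 0, against 65.4% of all regions, with a median of 0.10 for channel genes and 0.03 for all regions. All 3 alpha2delta, all 4 HCN and all 11 auxiliary genes were above 0, as were 9 of 10 calcium alpha1, 5 of 6 sodium and 23 of 35 Kv alpha genes. No channel gene passed the adjusted threshold in limma (0.00714% of all regions did), 14 had an unadjusted p under 0.05 (14.7%, against 9.14% of all regions), edgeR called 0 and DESeq2 2, among them Cacna1d (2.1%, against 0.178% of all regions). Both untreated knockouts were above all 4 vehicle libraries in 9 channel genes (9.5%, against 8.95% of all regions) and below them in 1 (1.1%, against 4.29%), shares near or below that of the table. Marker sums of other cell types moved with this group. The astrocyte sum was 3254 and 3193 in untreated knockouts and 2820.1 to 3031 in vehicle wild types, and that of endothelium and pericytes (6 of 6 markers listed) was 1019 and 1204 in untreated knockouts and 798 to 962 in vehicle wild types. In both lists the 2 untreated knockouts were above all 11 other libraries. The sum for choroid plexus and ependyma (4 of 5 listed) was 1049.7 and 925 in untreated knockouts and 993 to 1349 in vehicle wild types. The part of these in the channel gene values was not tested.

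Cacna1d encodes an L-type calcium channel that opens at relatively negative potentials. It had 891, 790.1, 820.0 and 851 in treated knockouts, 987 and 923 in untreated knockouts, 770.4, 789 and 802 in treated wild types and 731, 697, 814 and 844 in vehicle wild types. The 2 untreated knockouts were above all 11 other libraries, while treated knockouts overlapped both wild-type groups. The log2 difference from vehicle wild types was 0.31 ± 0.07 (SE), with an adjusted p of 0.16 in limma and 0.0292 in DESeq2. With sex as a term in limma it was 0.29 ± 0.10 and did not pass (adjusted p = 0.78). It did not pass in limma with TMM scaling of the libraries either (0.28 ± 0.06, adjusted p = 0.25). When limma was fitted to untreated knockouts and vehicle wild types alone, Cacna1d was the 1 channel gene to pass (adjusted p = 0.0338, against 0.336% of all regions). Cacna1i, a T-type gene of thalamic and cortical neurons, had 533 and 573 in untreated knockouts and 369, 390.2, 518 and 476 in vehicle wild types, with replicate 3 the closest to the knockouts (0.35 ± 0.10, adjusted p = 0.31). On the lower side, Kcnh8, an Elk-type voltage-gated gene, had 451 and 405 in untreated knockouts and 539, 584, 443 and 534 in vehicle wild types, and only vehicle replicate 3 lay between the knockouts (-0.29 ± 0.09, adjusted p = 0.35). Kcnj2, a classical inward rectifier gene, had 759 ± 51.2 in untreated knockouts and 874 ± 62.7 in vehicle wild types (SD, -0.20 ± 0.07, adjusted p = 0.40). Kcnk5, an acid-sensitive two-pore gene, had 255 and 248 in untreated knockouts and 292, 327, 259 and 296 in vehicle wild types, without overlap (-0.22 ± 0.09, adjusted p = 0.46).

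**Figure D4:**
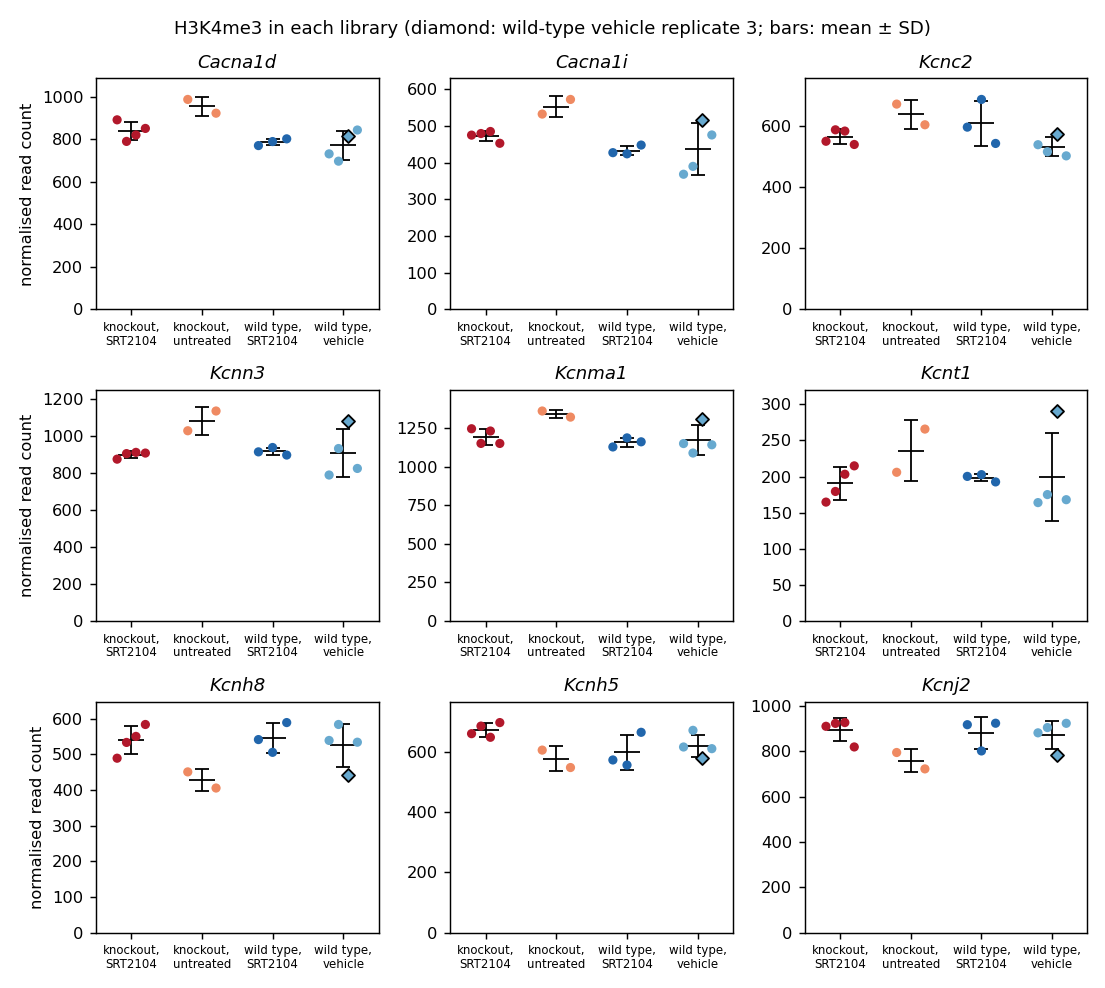
Normalised read count (y axis, from 0) in each library of 9 channel genes, with the mean ± SD of each group (n = 4, 2, 3 and 4, left to right). Both untreated knockouts are above the 11 other libraries in Cacna1d, and vehicle wild-type replicate 3 (diamond) lies among or near them in Cacna1i, Kcnn3, Kcnma1 and Kcnh8.

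Leaving out vehicle replicate 3 ended the absence of calls. In limma, 16 channel genes then passed (16.8%), against 4.03% of all regions, of which 14 were higher (2.71% of all regions) and 2 lower (1.31%) in untreated knockouts. Leaving out any of the other 12 libraries gave 0. Among the higher genes were the calcium alpha1 genes Cacna1d, Cacna1g and Cacna1i, the HCN gene Hcn3, the Kv genes Kcnc2, Kcnc4 and Kcnd3, the silent subunit gene Kcns3, and the calcium- or sodium-activated Kcnma1, Kcnn3 and Kcnt1. No sodium, alpha2delta, two-pore or auxiliary gene was among them, and of the inward rectifiers only Kcnj2 passed, on the lower side with Kcnh8. Vehicle replicate 3 had the highest neuron marker sum and the lowest oligodendrocyte, microglia and choroid plexus marker sums of its group. The vehicle libraries kept in this fit include replicate 1, with the lowest neuron marker sum of all libraries (4360.0). The part of these marker sums in the calls was not tested.

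The size of the change with that library differed by gene. Kcnt1 had 206 and 266 in untreated knockouts, against 164, 175, 291 and 168 in vehicle wild types, and its log2 difference was 0.27 ± 0.19 with all libraries and 0.47 ± 0.13 without replicate 3 (adjusted p = 0.035). These values are of its strongest region. The second region of Kcnt1, with 92.0% of that level, had 184 and 259, against 164, 202, 206 and 179, with overlap (0.22 ± 0.15 with all libraries). Kcnn3, a small-conductance calcium-activated gene, had 1029 and 1136, against 789.6, 933, 1079.8 and 825, with 0.26 ± 0.09 and 0.35 ± 0.07 (adjusted p = 0.00366). In both genes the count of that library was within or above the knockout values. Cacna1d (0.34 ± 0.07, adjusted p = 0.00773) moved little in size.

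Of the others, Kcnma1 had 1361 and 1321 in untreated knockouts and 1149.7, 1088, 1309.6 and 1142 in vehicle wild types, with 0.25 ± 0.06 without replicate 3 (adjusted p = 0.0235). Here replicate 3 was just below the knockout values. Cacna1g had 916 and 868 in untreated knockouts and 719, 750.1, 891 and 758 in vehicle wild types (0.26 ± 0.06, adjusted p = 0.0183), and Kcnc4 1045 and 1132, against 800.0, 901, 1177 and 963 (0.30 ± 0.08, adjusted p = 0.033). Kcnd3, of the A-type current, had 1197 and 1143, against 967, 1011, 1182 and 1005 (0.23 ± 0.06, adjusted p = 0.0335). Hcn3 (0.32 ± 0.09), Kcns3 (0.30 ± 0.08), Kcnc2 (0.30 ± 0.08) and Cacna1i (0.43 ± 0.08) were also higher without replicate 3. In the same fit Kcnh8 fell by 0.37 and Kcnj2 by 0.25 on the log2 scale (adjusted p = 0.00687 and 0.0435). With all libraries none of these genes passed. Kcnc4 then had 0.19 ± 0.12 (adjusted p = 0.67), with replicate 3 above both knockouts, and Kcnd3 had 0.17 ± 0.07 (adjusted p = 0.44). Hcn3 had 0.23 ± 0.10 (adjusted p = 0.48) and Kcnc2 0.26 ± 0.08 (adjusted p = 0.31) with all libraries.

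**Figure D5:**
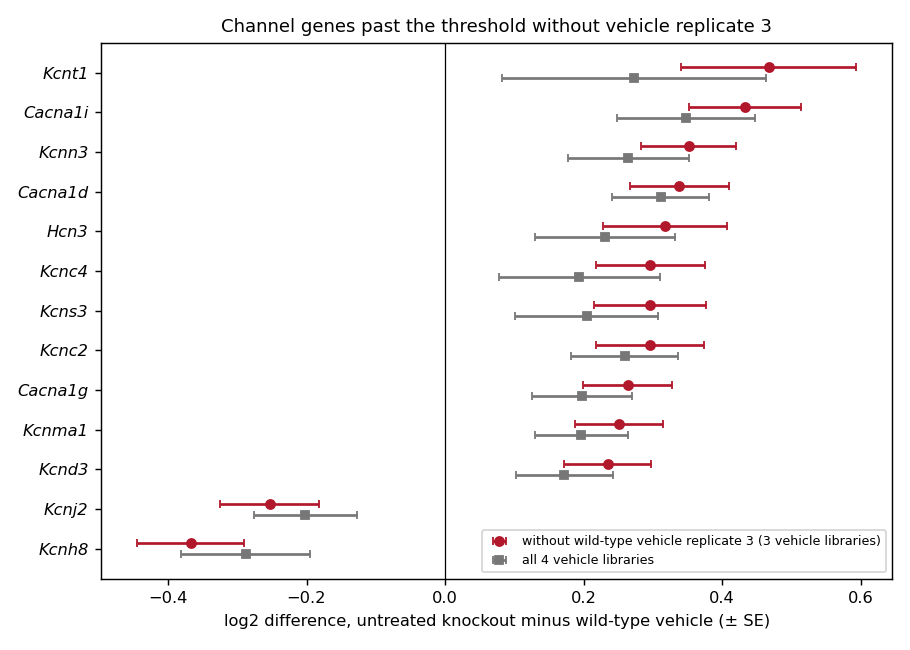
Log2 difference of untreated knockouts minus vehicle wild types (x axis, ± SE from limma) for 13 of the 16 channel genes past the adjusted threshold without vehicle replicate 3, without that library (red circles) and with all 4 vehicle libraries (grey squares). The gap between the symbols is widest for Kcnt1 and smallest for Cacna1d among the genes shown.

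The comparison of treated with untreated knockouts asks what SRT2104 goes with when methionine synthase is missing. It shares the untreated knockouts with the comparison above, so both rest in part on the same 2 libraries. Of the 95 genes, 71 were below 0, against 71.4% of all regions, with a median of -0.06 for channel genes and -0.05 for all regions. With TMM scaling, which sets the median of all regions near 0, 45 of 95 were above 0 in place of 24. No channel gene passed in limma (0% of all regions), 17 had an unadjusted p under 0.05 (17.9%, against 12.5%), edgeR called 0 and DESeq2 1, Kcnh8 (1.1%, against 0.207% of all regions). Treated knockouts were all below both untreated knockouts in 18 genes (18.9%, against 15.5% of all regions) and all above them in 5 (5.3%, against 6.19%). Marker sums in treated knockouts were 2835 to 2978 for astrocytes, 820.0 to 946 for endothelium and pericytes and 1139 to 1295 for choroid plexus and ependyma, none of which overlapped the untreated knockouts, and their part in this comparison was not tested.

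Kcnh8 had 489, 533, 550.2 and 584 in treated knockouts, against 451 and 405 in untreated knockouts, without overlap, and both wild-type groups (541, 506 and 589 in treated wild types) overlapped the treated knockouts. Its log2 difference was 0.33 ± 0.09, with an adjusted p of 0.23 in limma and 0.0471 in DESeq2. Kcnj2 had 911, 924, 928 and 820.0 in treated knockouts, against 796 and 723 (0.24 ± 0.07, adjusted p = 0.24). Kcnh5, an ether-a-go-go-type gene, had 661, 686, 649 and 698 in treated knockouts, against 607 and 549 (0.22 ± 0.07, adjusted p = 0.26). In all 3 genes every treated knockout was above both untreated ones. Kcnn3 had 875, 905, 912 and 908 in treated knockouts, against 1029 and 1136 in untreated knockouts (-0.26 ± 0.09, adjusted p = 0.29), and its treated knockouts were close to each other and to the treated wild types (915, 938 and 898). Cacna1d, with the values above, had -0.19 ± 0.07 (adjusted p = 0.32).

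When only the 6 knockout libraries were fitted, 5 channel genes passed (5.3%, against 2.59% of all regions). Among them Kcnh8 was higher (0.33 ± 0.07), and Kcnn3 (-0.26 ± 0.07) and Kcnip3 (-0.25 ± 0.07) were lower in treated knockouts. Kcnip3 encodes a calcium-binding partner of Kcnd channels that also acts as a transcriptional repressor. Its second region, with 44.3% of the level of the first, was not lower. It had 203 ± 14.5 in treated and 197 ± 6.73 in untreated knockouts (SD, 0.04 ± 0.14 in the fit to all 13 libraries). Without vehicle replicate 3, 3 channel genes passed (3.2%, against 1.46% of all regions), Kcnh8 (adjusted p = 0.0204) and Kcnn3 (adjusted p = 0.0366) among them. With only female libraries, 2 in each group, 1 channel gene passed (1.1%, against 1.96% of all regions).

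The comparison of treated with vehicle wild types asks what SRT2104 goes with in normal mice, and its control group is shared with the first comparison. Of the 95 genes, 51 were above 0, against 28.5% of all regions, with medians of 0.00 for channel genes and -0.05 for all regions. With TMM scaling 72 were above 0, and the distance between both medians stayed at 0.06. This distance differed between libraries. The median over channel genes minus that over all regions was 0.137, 0.00424 and 0.0324 in treated wild types and -0.0565 to 0.0636 in vehicle wild types. The value of 0.137 is from replicate 1, the only female library in these groups and the one with the fewest reads (3963196). No channel gene passed in limma (0.00714% of all regions), 5 had an unadjusted p under 0.05 (5.3%, against 13.4% of all regions), and edgeR and DESeq2 called 0. Every treated wild type was above every vehicle wild type in 1 gene (1.1%, against 1.75%) and below in 2 (2.1%, against 12.7%).

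Kcnc2, a fast delayed rectifier gene of interneurons, had 597, 688 and 544 in treated wild types, against 539.7, 517, 574 and 503 in vehicle wild types, with overlap (0.19 ± 0.07, adjusted p = 0.33). Cacna1e, of the R-type current, had 722, 581 and 639, against 539, 559, 600.5 and 546 (0.20 ± 0.07, adjusted p = 0.33), and Scn3a 419, 304 and 332, against 262, 335, 313 and 298 (0.21 ± 0.10, adjusted p = 0.36). In each of these the highest treated library was above all vehicle libraries and the lowest was among them. On the lower side, Kcnj12, an inward rectifier gene, had 404, 395 and 424 in treated wild types, against 450.3, 452, 478 and 446, without overlap (-0.16 ± 0.06, adjusted p = 0.33). Hcn2 had 669, 755 and 779, against 825, 801, 857 and 785, also without overlap (-0.16 ± 0.06, adjusted p = 0.34). Kcnq1 had 63.2, 93.0 and 78.4, against 96.3, 92.9, 103 and 87.1 (-0.29 ± 0.15, adjusted p = 0.39), and the groups overlapped. In Cacna1e, Scn3a, Hcn2 and Kcnq1 the most extreme treated value was that of replicate 1, the female library with the fewest reads. With male libraries alone their log2 differences were 0.12 ± 0.06, 0.08 ± 0.10, -0.09 ± 0.05 and -0.15 ± 0.16. Those of Kcnc2 and Kcnj12 were then 0.20 ± 0.09 and -0.16 ± 0.06.

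With SRT2104 given to both genotypes, 64 of 95 genes were above 0 in treated knockouts against treated wild types (67.8% of all regions were), with a median of 0.04 for channel genes and 0.03 for all regions, and with TMM scaling 50 were. No channel gene passed in limma (0.00714% of all regions), 7 had an unadjusted p under 0.05 (7.4%, against 6.2%), and edgeR and DESeq2 called 0. Every treated knockout was above every treated wild type in 5 genes (5.3%, against 5.09% of all regions) and below in 1 (1.1%, against 1.71%). Kcnj12 had 467, 435, 479 and 448 in treated knockouts, against 404, 395 and 424 in treated wild types, without overlap (0.16 ± 0.06, adjusted p = 0.78). Kcnh5 had 661, 686, 649 and 698, against 574, 557 and 666, and a single treated wild type reached the knockouts (0.17 ± 0.06, adjusted p = 0.78). Kcnmb2, an auxiliary subunit gene of the Kcnma1 channel, had 124, 134, 140.2 and 134, against 171, 141 and 148 (-0.20 ± 0.12, adjusted p = 0.78), with every treated knockout lower. Kcnc2 (-0.10 ± 0.07) and Kcnj16 (-0.27 ± 0.20) had adjusted p of 0.79 and 0.80.

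Treated knockouts set against vehicle wild types had 69 of 95 genes above 0 (38.5% of all regions were), with medians of 0.04 for channel genes and -0.02 for all regions. No channel gene passed in limma (0.00714% of all regions), 2 had an unadjusted p under 0.05 (2.1%, against 2.16%), and edgeR and DESeq2 called 0. Every treated knockout was above every vehicle wild type in 3 genes (3.2%, against 0.436% of all regions) and below in 0 (2.32%). Cacna1d (0.12 ± 0.06) and Kcnh5 (0.12 ± 0.06) overlapped the vehicle libraries. The lower genes were Kcnmb2 (-0.16 ± 0.11), Kcna6, a Shaker-type gene (-0.06 ± 0.05), and Kcnk6, a two-pore gene (-0.10 ± 0.09), each with an adjusted p of 1.00.

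Whether the response to SRT2104 depended on genotype was tested as an interaction, the difference in knockouts minus the difference in wild types. It was below 0 in 64 of 95 genes, against 47.4% of all regions, with a median of -0.06 for channel genes and 0.01 for all regions. It was below 0 in 10 of 11 auxiliary, 5 of 6 sodium and 7 of 10 calcium alpha1 genes, but in only 21 of 35 Kv alpha genes and 4 of 10 inward rectifiers. No channel gene passed in limma (0% of all regions), 13 had an unadjusted p under 0.05 (13.7%, against 7.88%), and edgeR and DESeq2 called 0. Kcnc2 had the smallest p. It had 566 ± 23.9 in treated knockouts, 639 ± 47.9 in untreated knockouts, 609.7 ± 72.9 in treated wild types and 533 ± 31.2 in vehicle wild types (SD), an interaction of -0.36 ± 0.10 (adjusted p = 0.37). Kcnk5 had 304 ± 21.6 in treated knockouts, 251 ± 5.09 in untreated knockouts, 270.4 ± 6.76 in treated wild types and 294 ± 27.8 in vehicle wild types (SD), an interaction of 0.38 ± 0.12 (adjusted p = 0.45). Kcnh5 (0.28 ± 0.10) followed on the same side, with an adjusted p of 0.48. Kcnn3 (-0.29 ± 0.12) and Cacna1d (-0.22 ± 0.09) followed on the side of Kcnc2, with adjusted p of 0.57 and 0.58. Without vehicle replicate 3, 4 channel genes passed (4.2%, against 1.94% of all regions), among them Kcnk5 (0.44 ± 0.12), Kcnc2 (-0.40 ± 0.10) and Kcnn3 (-0.38 ± 0.09).

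The 5 genes with the largest spread over the 13 libraries were all of low level. Kcnh6 ranged over 17.3, 27.2, 28.9 and 20.6 normalised read counts in treated knockouts, 10.4 and 20.6 in untreated knockouts, 27.1, 29.8 and 28.1 in treated wild types and 18.2, 37.8, 17.95 and 22.9 in vehicle wild types, with an SD of 0.45 on the log2 scale. Kcne1l, an X-linked auxiliary subunit gene, had 15.2 ± 3.59 in treated knockouts, 16.6 ± 0.635 in untreated knockouts, 15.0 ± 5.32 in treated wild types and 10.9 ± 3.87 in vehicle wild types. Kcnip4 had 73.4 ± 8.30 in treated knockouts, 85.6 ± 39.6 in untreated knockouts, 74.9 ± 11.4 in treated wild types and 61.8 ± 19.0 in vehicle wild types. Its untreated knockouts were 57.6 and 114, the third lowest and the highest of the 13 libraries. Kcnj5 had 44.4 ± 7.06 in treated knockouts, 60.6 ± 28.2 in untreated knockouts, 54.6 ± 12.99 in treated wild types and 47.4 ± 7.66 in vehicle wild types, and Kcns1, a silent Kv subunit gene, 76.7 ± 9.35 in treated knockouts, 57.0 ± 24.5 in untreated knockouts, 73.1 ± 12.7 in treated wild types and 69.9 ± 13.4 in vehicle wild types. Every pair of groups overlapped in each of these 5 genes, except that the treated wild types were above both untreated knockouts in Kcnh6. Of the 3 X-linked channel genes, Cacna1f, Kcnd1 and Kcne1l, none differed between the sexes in a fit with sex as a term (adjusted p = 1.00 each).

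Partners of these channels outside the rule were followed from a list of 43 genes, among them beta and gamma subunits, ankyrins and other scaffolds of the axon initial segment, of which 42 had a region. In untreated knockouts against vehicle wild types, 39 of the 42 were above 0 (92.9%, against 65.4% of all regions), with a median of 0.15, against 0.03 for all regions. In limma 0 passed, and 19 had an unadjusted p under 0.05 (45.2%, against 9.14% of all regions). The 3 partners below 0 were Scn4b (-0.27 ± 0.11), Cacng5 (-0.36 ± 0.25) and Stac (-0.13 ± 0.12). Scn4b, a sodium channel beta subunit gene, was among the 19. Cacng8, an auxiliary subunit of AMPA receptors, had 643 ± 31.8 in untreated knockouts and 520.0 ± 33.8 in vehicle wild types (SD, log2 difference 0.31 ± 0.08, adjusted p = 0.20). Ank3, the ankyrin that anchors sodium and Kcnq channels at the axon initial segment, had 873 ± 34.1 in untreated knockouts and 720.0 ± 77.4 in vehicle wild types (0.28 ± 0.07, adjusted p = 0.21). In both genes vehicle wild types had the lowest mean of the 4 groups. Cacng8 had 578 ± 40.8 in treated knockouts and 620 ± 60.9 in treated wild types. Ank3 had 801 ± 11.2 in treated knockouts and 823 ± 57.4 in treated wild types. In treated against untreated knockouts 33 of the 42 were below 0 (78.6%, against 71.4% of all regions), a share near that of the table. In treated against vehicle wild types 29 were above 0 (28.5% of all regions were), and the interaction was below 0 in 33 (78.6%, against 47.4% of all regions). No partner passed in these comparisons.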

How the data were processed

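The authors deposited 1 table of normalised read counts, the signal of each of 13 libraries in each H3K4me3 region, beside a knockout against wild-type log2 fold change and p-value for every region. Per the submitters' processing notes, the build was mm9 and the tools were DESeq2, MACS2, bedtools, SAMtools and Bowtie2, with no version or role given. The authors list a region once per promoter window it overlaps, and the 17212 lines hold 14006 distinct regions. Dividing each library's deposited values by its own smallest step gave whole numbers for 100% of them (tolerance 0.001 reads), and edgeR and DESeq2 were run on these recovered reads. Coordinates are as the table gives them.

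The main test was limma's moderated test on log2(value + 1), with robust variances and a mean trend, fitted to all 13 libraries with a coefficient for each group, two-sided, with Benjamini-Hochberg adjustment over all regions and a threshold of 0.05. This scale understates the change of low regions. Regions needed 10 counts in at least 2 libraries, which removed 0. The fit was tested on simulated data. Reads are not independent molecules, and depth (3963196 to 9009109 reads in regions) limits low regions most. Versions were Python 3.11.15, matplotlib 3.10.9, pandas 2.3.3, R 4.3.3, edgeR 4.0.16, DESeq2 1.42.0 and limma 3.58.1.

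The members, gene lists and tests were chosen with earlier results of these data known. Genes named are, per comparison, the 3 members with the smallest unadjusted p in each direction, members past the threshold in an alternative, the highest and lowest of each family, the 5 most variable and a textbook set; some genes this names are not reported here. The alternatives left out each library, changed scaling, pseudocount, filter, test and libraries fitted, and added sex or the replicate number. A total of 7 members share their region with another gene name.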

Additional observations from a re-analysis of the deposited data

Results flagged for a closer look

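In groups of 4 libraries a library was marked when its gap to the nearest other, over the range of the group, passed Dixon's critical value of 0.829. Of 212 groups tested 9 were marked, and chance marks about 1 in 20. Most concern single genes. Kcnt1 had 291 normalised read counts in vehicle wild-type replicate 3, against 164 to 175 in the other 3, and Kcnt1 passed in untreated knockouts against vehicle wild types without this library and under no other setting run. In the second region of Kcnt1 the same library had 206, against 164, 202 and 179. Kcng3, a modifier subunit gene, had 498 in vehicle replicate 2, against 576 to 586, and Kcnj3 had 1005 in vehicle replicate 1, against 1112 to 1129. Kcnj5 had 36.1 in vehicle replicate 4, against 50.3 to 53.0. In treated knockouts, Cacna1h had 1089.5 in replicate 1, against 979 to 996, Kcna6 597 in replicate 3, against 581 to 583, and Kcnj2 820.0 in replicate 4, against 911 to 928. That same replicate 4 had a median log2 difference from the vehicle mean of 0.00841 over all channel genes, against 0.0597 to 0.0648 in the other 3 treated knockouts, and of 0.00598 over potassium channel genes, against 0.0623 to 0.0681.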

How the results depend on the processing

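The 36 differences of named genes kept their direction under the 23 or 24 other settings run for each, and 835 of the 852 values stayed on the same side of the threshold, while 17 passed where the reported one did not. Channel genes past the threshold numbered 1 (untreated knockouts against vehicle wild types) and 5 (treated against untreated knockouts) with only the groups compared, 2 and 1 with DESeq2, and 1 (treated against untreated knockouts) among female libraries, a setting chosen after seeing the data. Leaving out each library gave 0 to 16, 0 to 3 and 0 to 4 calls in untreated knockouts against vehicle wild types, in treated against untreated knockouts and in the interaction, 0 to 8 in the test across 4 groups, and 0 to 0 elsewhere, and calls came only without vehicle replicate 3. The median over channel genes of treated against untreated knockouts, -0.0554, was -0.0054 with TMM scaling, -0.0032 with quantile normalization, -0.0020 in edgeR and -0.0028 in DESeq2. That of treated against vehicle wild types, 0.0040, was 0.0565 and 0.0522 with TMM and quantile normalization, and its sign changed without treated wild-type replicate 1 or 3 or vehicle replicate 1 or 2. Without each library the medians ran from 0.0686 to 0.1259 (untreated knockouts against vehicle wild types), -0.0954 to -0.0256 (treated against untreated knockouts, the ends without untreated knockout replicates 2 and 1), -0.0219 to 0.0334 (treated against vehicle wild types), 0.0121 to 0.0591 (treated knockouts against treated wild types, lowest without treated wild-type replicate 2), 0.0247 to 0.0791 (treated knockouts against vehicle wild types, the ends without vehicle replicates 1 and 3) and -0.0884 to -0.0310 (interaction, weakest without vehicle replicate 1). The cause of these shifts was not tested. Replicate numbers did not pair the libraries: correlations of same-numbered libraries ran from -0.293 to 0.193 over 16 pairs. With the replicate block 0 channel genes passed in each comparison, with medians of 0.1105, -0.0711, 0.0057, 0.0495, 0.0431 and -0.0646 in the order of the report. A minimum of 50 counts removed 545 regions.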
